A study of Mus musculus with 10 samples.

Results

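Mitochondrial ribosomal protein genes were compared between PC-depleted (shPC) and control (Ctrl) mammary tumors of the mouse. They were taken as every gene on the array whose symbol begins with Mrpl or Mrps followed by a number, which gave 76 of the 19505 genes measured, 48 with an Mrpl symbol and 28 with an Mrps symbol. Each was read by 1 probe set, and all 76 passed the low-signal filter used as an alternative. The tumors were grown from M-Wnt cells, a mesenchymal mammary cancer line, of which 50000 were injected per 4th mammary fat pad in female C57BL6/J mice fed AIN-93G diet. In both groups the cells carried a doxycycline-inducible shRNA against Pcx, the gene of pyruvate carboxylase (PC). Mice of the shPC group drank water with 150 µg/ml doxycycline (5 tumors), while mice of the Ctrl group drank standard water (5 tumors). No group received doxycycline without an inducible shRNA against Pcx, so the drug and the knockdown cannot be told apart in any difference below. RNA came from whole tumors, host cells included, and was measured on 1 Clariom S mouse array per tumor. Fewer cells of a type and less RNA per cell cannot be told apart in such samples. The p-values reflect only how far these 10 tumors spread.

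Mitochondria contain their own ribosomes, which translate the few respiratory chain proteins encoded by mitochondrial DNA. All proteins of this ribosome are encoded in the nucleus, made in the cytosol and imported, whereas its rRNAs come from mitochondrial DNA. The large subunit (Mrpl genes) joins amino acids and the small subunit (Mrps genes) reads the mRNA. Part of each subunit descends from bacterial ribosomal proteins and part is found only in mitochondria. Tetracyclines such as doxycycline bind the small subunit of the bacterial ribosome, and they also inhibit mitochondrial translation, which is why these genes are of interest in an experiment that switches an shRNA on with doxycycline. The arrays measured mRNA of the nuclear genes only. Transcripts of mitochondrial DNA and the activity of the ribosome were not analysed here.

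No mitochondrial ribosomal protein gene passed the test, and the mean signal of the 76 genes differed little between the groups. By limma, 0 of 76 were higher and 0 lower in the shPC tumors at an adjusted p under 0.05, as were 0% of all genes in either direction. At an unadjusted p under 0.05, 6 were higher and 0 lower, against 7.8% higher and 6.25% lower among all genes. The 6 genes are 7.89% of the 76, a share close to that of all genes. A positive difference (shPC minus Ctrl, log2 scale) was measured for 48 of 76 genes, or 63.2%, against 55.1% of all genes. The median difference was 0.072 for the 76 genes, 0.045 for the Mrpl genes and 0.086 for the Mrps genes, beside 0.036 for all genes. The 95% interval of the difference lay within 2-fold in either direction for all 76 genes, against 80.9% of all genes, with the lowest bound at -0.84 and the highest at 0.97. Each interval holds for 1 gene at a time and for the deposited normalization. With arrays centred on their median, the difference of Mrps12, the gene with the highest bound, was 0.459 in place of 0.36. Intervals are not given for that setting. The absolute difference was under 0.2 for 52 of the 76. The median standard deviation within groups was 0.245 for these genes and 0.324 for all genes.

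**Figure D1:**
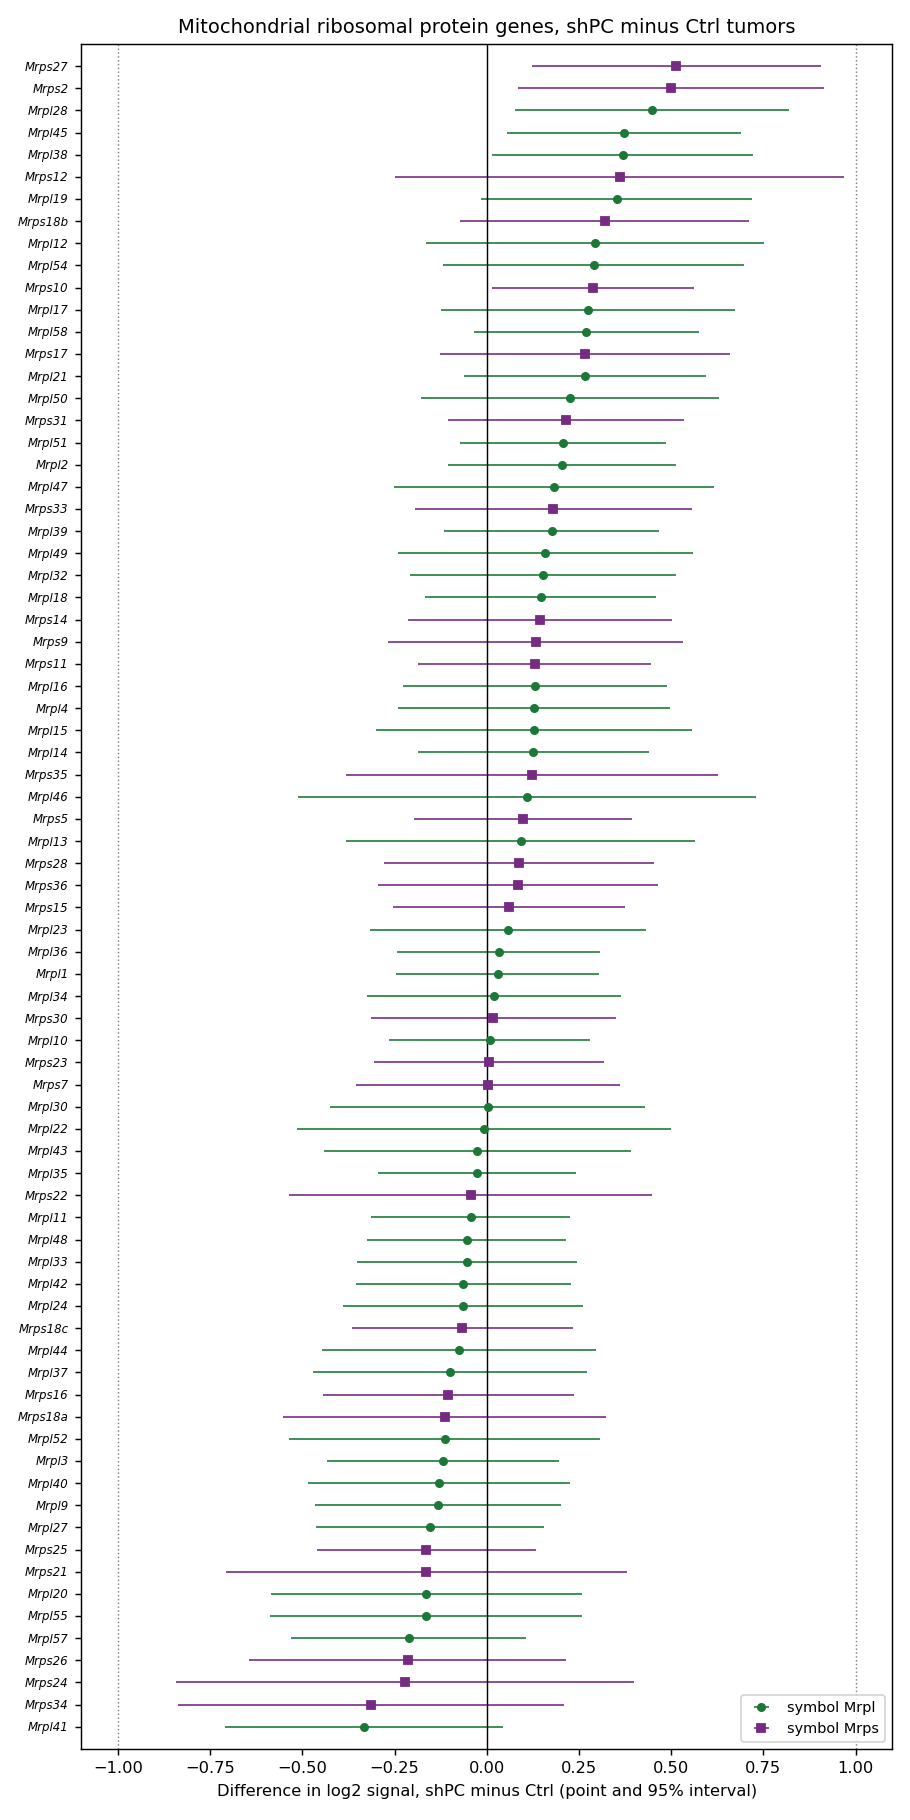
Difference in log2 signal, shPC minus Ctrl, for each of the 76 genes (point, with the 95% interval as a line; 5 tumors per group), ordered by size, circles for Mrpl and squares for Mrps symbols. Dotted lines mark a change of 2-fold in either direction, and no interval crosses them; the intervals of 6 genes lie wholly above 0 and those of 0 genes wholly below.

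The targeted gene and the make-up of the tumors are needed to read these values. Pcx had a log2 signal of 9.91, 4.69, 9.39, 4.49 and 5.15 in shPC tumors 1 to 5, against 10.43, 7.24, 11.01, 7.79 and 9.54 in Ctrl tumors 1 to 5, a difference of -2.48 (SE 1.19, adjusted p = 0.378, limma). The signals of shPC 1 and shPC 3 fell inside the range of the Ctrl group. Adipocytes express Pcx strongly, and the mean of 11 adipocyte markers was 5.92 to 11.6 in the shPC tumors and 8.67 to 12.5 in the Ctrl tumors, with shPC 1 and shPC 3 the highest of their group. Of 12 leukocyte markers 8 were lower at an unadjusted p under 0.05, and their mean was 11.9 to 13.2 in the shPC tumors, lowest in shPC 5, and 13.3 to 13.9 in the Ctrl tumors. Of 14 proliferation markers 8 were higher at an unadjusted p under 0.05, and their mean was 12.4 to 13.0 in the shPC tumors and 11.9 to 12.5 in the Ctrl tumors. Among all genes 7.8% were higher and 6.25% lower at that cut, and no gene passed the adjusted test. Skeletal muscle markers averaged 8.09 in Ctrl 1 and 3.71 to 4.35 in the other 9 tumors. Of 8 mesenchymal markers, 6 had a positive difference, beside 55.1% of all genes, and 2 were higher at an unadjusted p under 0.05. Their mean was 13.8 to 14.3 in the shPC tumors and 13.6 to 14.1 in the Ctrl tumors. Vim, 1 of them, which encodes the mesenchymal filament vimentin, was at 17.5 to 17.7 in the shPC tumors and at 17.5 to 17.6 in the Ctrl tumors. The epithelial marker Epcam was at 3.78 to 7.74 in the shPC tumors and 7.06 to 9.33 in the Ctrl tumors. The median of the array was 7.16 in shPC 5 and 7.35 to 7.47 in the other 9 tumors.

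The promoters of 4 genes are shown as examples, Mrps27 having the largest difference and Mrps2, Mrps10 and Mrpl45 having shPC and Ctrl tumors that did not overlap. Each line gives the 250 bases before the RefSeq start (GRCm38.p6), written along the gene's own strand, with capitals for a match to a motif of factors known to bind at genes of mitochondrial proteins: CCGGAAG for ETS factors such as the GABP complex, GCGCA and GCGC with any 1 base between them for NRF1 and AAGATGGC for YY1, each searched on both strands. The Mrps27 promoter is at chr13:99344536-99344785, that of Mrpl45 at chr11:97315466-97315715, that of Mrps2 at chr2:28467816-28468065 and that of Mrps10 at chr17:47368947-47369196, all on the plus strand.
Mrps27: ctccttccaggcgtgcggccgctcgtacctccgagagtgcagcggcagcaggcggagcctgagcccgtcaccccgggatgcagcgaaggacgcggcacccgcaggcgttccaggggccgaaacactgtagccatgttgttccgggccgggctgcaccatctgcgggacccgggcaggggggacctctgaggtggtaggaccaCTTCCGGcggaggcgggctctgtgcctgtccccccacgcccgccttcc
Mrpl45: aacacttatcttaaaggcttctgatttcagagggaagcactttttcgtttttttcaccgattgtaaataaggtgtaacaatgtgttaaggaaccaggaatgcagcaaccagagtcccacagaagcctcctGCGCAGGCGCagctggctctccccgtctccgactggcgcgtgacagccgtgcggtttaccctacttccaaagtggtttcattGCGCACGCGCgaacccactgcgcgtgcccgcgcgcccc
Mrps2: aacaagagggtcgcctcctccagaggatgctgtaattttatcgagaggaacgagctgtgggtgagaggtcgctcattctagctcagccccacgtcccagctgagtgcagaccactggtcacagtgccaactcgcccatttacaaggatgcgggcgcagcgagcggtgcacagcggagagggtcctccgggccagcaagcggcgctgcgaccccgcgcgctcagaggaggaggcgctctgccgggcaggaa
Mrps10: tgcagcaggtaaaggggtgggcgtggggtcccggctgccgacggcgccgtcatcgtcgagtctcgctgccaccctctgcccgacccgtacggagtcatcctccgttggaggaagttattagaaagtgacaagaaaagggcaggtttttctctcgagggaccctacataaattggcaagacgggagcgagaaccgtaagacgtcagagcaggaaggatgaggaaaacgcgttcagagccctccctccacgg

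The Mrpl45 promoter held 2 NRF1 matches, whose first bases lay 120 and 38 bases before the start, the Mrps27 promoter held 1 ETS match 48 bases before it, and those of Mrps2 and Mrps10 held none of the 3 motifs. A promoter was found for 67 of the 76 genes, 3 of them with several starts. Of these 67, 25.4% held the ETS motif, 14.9% the NRF1 motif and 5.97% the YY1 motif, against 10.5%, 6.19% and 1.78% of 15691 genes in all. At least 1 of the 3 was present in 43.3% of the 67 genes and in 16.8% of all genes. The E-box CACGTG, to which MYC binds, was present in 7.46% of the 67 genes and 7.92% of all genes. The median difference between shPC and Ctrl tumors was -0.01 over the 29 genes with any of the 3 motifs and 0.07 over the 38 with none. A match describes the sequence and is not a measured binding site.

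Of the 6 genes with the smallest p among those higher in the shPC tumors, 3 encode small subunit proteins. Mrps27 encodes a mitochondria-specific protein with pentatricopeptide repeats that binds the small subunit rRNA. It had 10.12, 9.52, 9.73, 9.80 and 10.12 in shPC tumors 1 to 5, against 9.49, 9.02, 9.07, 9.44 and 9.70 in Ctrl tumors 1 to 5. The groups overlapped, since Ctrl 5 lay above shPC 2, and the difference was 0.51 (SE 0.18, 95% interval 0.12 to 0.91, unadjusted p = 0.0147 and adjusted p = 0.254, limma), a ratio of 1.43. Mrps2, the counterpart of bacterial S2, had 10.77, 10.62, 10.73, 10.62 and 11.52 in the shPC tumors, against 10.15, 10.19, 10.34, 10.53 and 10.55 in the Ctrl tumors. The groups did not overlap, and shPC 5 stood apart from the other 4 shPC tumors. The difference was 0.50 (SE 0.19, adjusted p = 0.278, limma) and 0.33 without shPC 5. Mrps10, a protein of the head of the small subunit, had 10.91, 10.99, 11.27, 11.26 and 10.93 in the shPC tumors, against 10.86, 10.69, 10.73, 10.83 and 10.81 in the Ctrl tumors. All shPC values lay above all Ctrl values, with shPC 3 and shPC 4 highest, and the difference of 0.29 (SE 0.12, adjusted p = 0.336, limma) was between 0.24 and 0.33 when any 1 tumor was left out.

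The other 3 encode large subunit proteins. Mrpl45 encodes a mitochondria-specific protein at the exit of the peptide tunnel that tethers the ribosome to the inner membrane. It had 11.66, 11.90, 11.75, 12.15 and 12.29 in the shPC tumors, against 11.49, 11.61, 11.53, 11.61 and 11.65 in the Ctrl tumors. The groups were apart only by the small gap between shPC 1 and Ctrl 5, and the difference was 0.37 (SE 0.14, adjusted p = 0.288, limma). Mrpl28, the counterpart of bacterial L28, had 8.19, 8.01, 8.17, 8.84 and 8.21 in the shPC tumors, against 7.84, 7.62, 7.92, 8.05 and 7.75 in the Ctrl tumors. The shPC 4 tumor stood apart from the rest of its group, shPC 2 lay below Ctrl 4, and the difference was 0.45 (SE 0.17, adjusted p = 0.278, limma) and 0.31 without shPC 4. Mrpl38, a mitochondria-specific protein of the central protuberance, had 11.00, 10.49, 10.57, 10.38 and 10.85 in the shPC tumors, against 10.02, 10.20, 10.28, 10.35 and 10.60 in the Ctrl tumors. Ctrl 5 lay above 3 of the shPC tumors, and the difference was 0.37 (SE 0.16, adjusted p = 0.342, limma). Groups that did not overlap were found for 3 of the 76 genes, all higher in the shPC tumors, or 3.95%, beside 1.82% of all genes in that direction and 1.79% in the other. These genes did not share 1 tumor as their highest, which was shPC 5 for Mrps2 and Mrpl45 and shPC 3 for Mrps10.

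In the other direction no gene reached an unadjusted p under 0.05. Mrpl41, a mitochondria-specific protein of the large subunit, had the smallest p, with 7.50, 7.97, 7.53, 8.03 and 8.31 in the shPC tumors, against 8.38, 8.14, 8.10, 8.11 and 8.28 in the Ctrl tumors. Of the shPC tumors, 4 had less signal than any Ctrl tumor and shPC 5 lay among the Ctrl values, and the difference was -0.33 (SE 0.17, 95% interval -0.71 to 0.04, unadjusted p = 0.0775 and adjusted p = 0.411, limma). Mrps34, a mitochondria-specific protein of the small subunit, had 10.07, 9.38, 9.19, 9.49 and 8.80 in the shPC tumors, against 10.11, 9.22, 9.68, 9.60 and 9.89 in the Ctrl tumors. These groups overlapped widely, shPC 5 being the lowest tumor and shPC 1 the second highest, and the difference of -0.31 had an adjusted p of 0.575 by limma. It was -0.48 without shPC 1 and -0.17 without shPC 5. Mrpl57 had a difference of -0.21, Mrps25 one of -0.16, Mrps26 one of -0.21 and Mrpl27, the counterpart of the bacterial protein whose tail reaches the peptidyl transferase centre, one of -0.15, each with overlapping groups. In Mrps25 and Mrps26, the highest of all 10 tumors was shPC 1, although the other shPC tumors were mostly low.

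**Figure D2:**
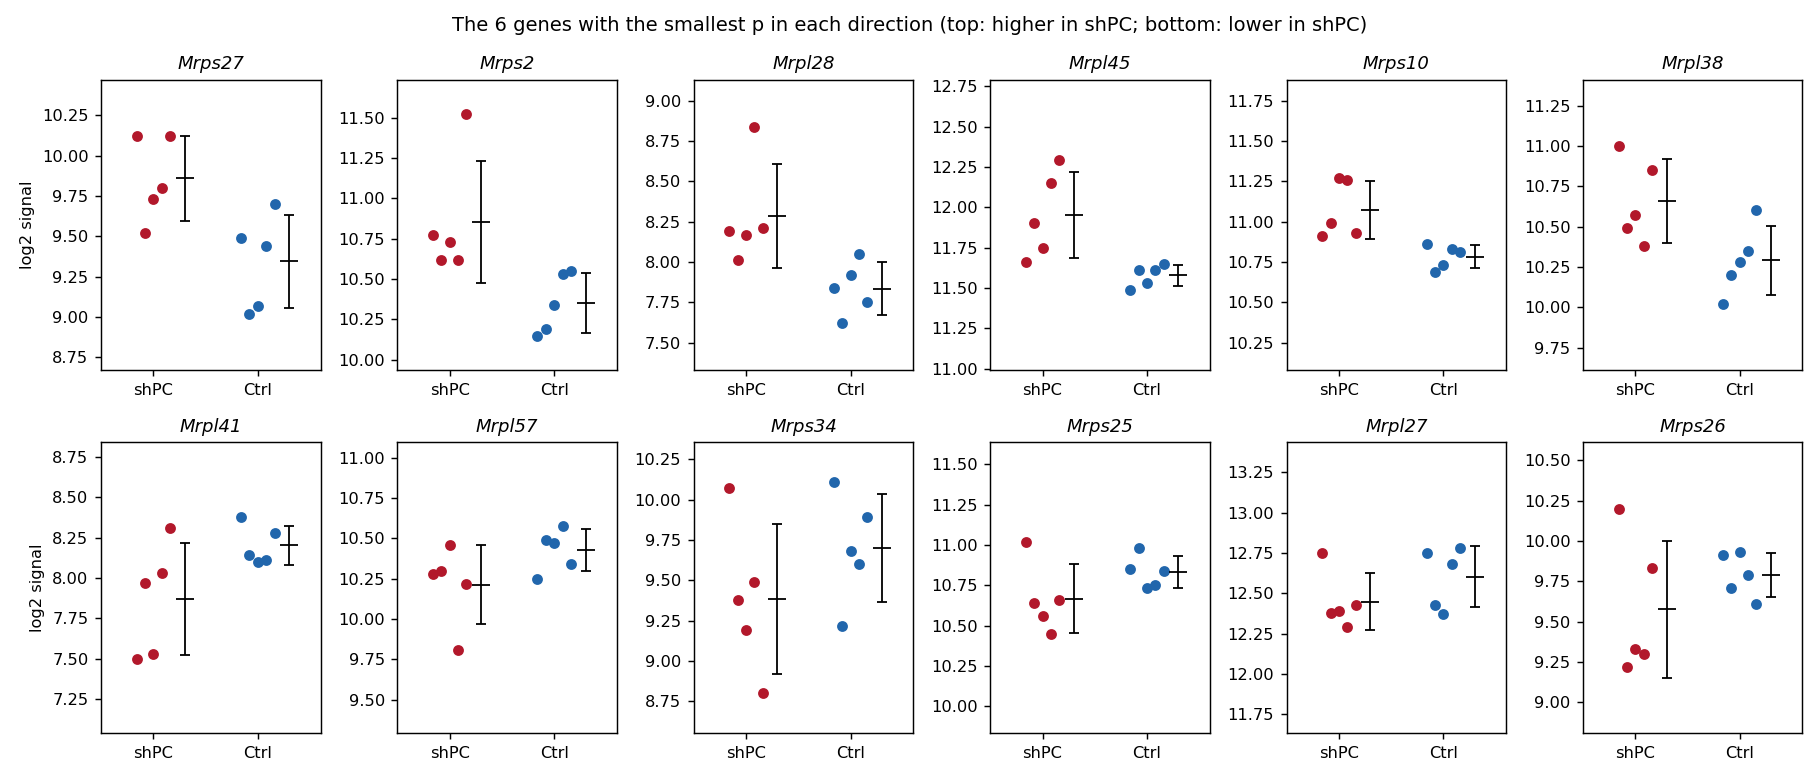
Log2 signal of each tumor (points, shPC in red and Ctrl in blue) with the mean and standard deviation of 5 tumors (bar), for the 6 genes with the smallest p in each direction; every panel spans the same number of log2 units. Only Mrps2, Mrps10 and Mrpl45 have shPC values that all lie above the Ctrl values, and single high tumors are seen for Mrps2 (shPC 5, 11.52) and Mrpl28 (shPC 4, 8.84).

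The genes were then followed by the place of their protein in the ribosome. In the stalk of the large subunit, which recruits translation factors, Mrpl12 had 11.02 ± 0.35 in the shPC tumors and 10.73 ± 0.33 in the Ctrl tumors (SD, n = 5 each), with shPC 1 highest at 11.62 and Ctrl 1 lowest at 10.28. Mrpl10, to which the stalk is attached, had 9.66 ± 0.09 in the shPC tumors and 9.65 ± 0.17 in the Ctrl tumors, and Mrpl11, at the base, had 9.38 ± 0.11 in the shPC tumors and 9.42 ± 0.15 in the Ctrl tumors (SD, n = 5 each). The difference was 0.29 for Mrpl12, 0.01 for Mrpl10 and -0.04 for Mrpl11, with adjusted p-values from limma of 0.549 or more, and that of Mrpl12 was 0.14 without shPC 1. Around the exit tunnel, Mrpl45 was the only gene of 4 with an unadjusted p under 0.05. Mrpl22, Mrpl23 and Mrpl24, counterparts of the bacterial proteins that line or ring the tunnel, had differences of -0.01, 0.06 and -0.06. The value of Mrpl22 was spread widely in the shPC tumors, between 7.59 in shPC 3 and 8.82 in shPC 1, and between 7.79 and 8.45 in the Ctrl tumors.

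Mammals have 3 genes related to bacterial S18, and their proteins occupy different sites. Mrps18b, whose protein lies in the small subunit, had 10.35, 9.57, 9.66, 9.86 and 9.65 in the shPC tumors, against 9.34, 9.28, 9.85, 9.43 and 9.59 in the Ctrl tumors, a difference of 0.32 (SE 0.18, adjusted p = 0.446, limma) that was 0.19 without shPC 1. Mrps18c, the protein at the bacterial position, had a difference of -0.07, and Mrps18a, which in spite of its name is part of the large subunit, had one of -0.11 with a range of 8.55 to 9.57 in the shPC tumors and 9.06 to 9.52 in the Ctrl tumors. Differences between these 3 genes were not tested. All 6 genes listed for the small subunit head and decoding site had a difference above 0, with a median of 0.14. Of these, 1, Mrps10, had an unadjusted p under 0.05. The list does not cover the whole small subunit. It leaves out Mrps24 (-0.22), for example, and of all 28 Mrps genes 19 were above 0. Among all genes 55.1% were above 0 and the median was 0.036. Mrps7 was above 0 by only 0.002. The signs of Mrps7, Mrps5, Mrps9 and Mrps14 changed under some of the alternatives below. Mrps12, the counterpart of the bacterial decoding protein S12, had the largest difference of the 6 listed genes, 0.36, and the widest interval, -0.25 to 0.97. Its values were 9.81, 8.68, 8.99, 8.48 and 8.93 in the shPC tumors, against 8.95, 8.95, 8.02, 8.95 and 8.22 in the Ctrl tumors, so shPC 1 was far above the rest, and Ctrl 3 and Ctrl 5 were low. The difference was 0.15 without shPC 1. The remaining genes had 0.14 (Mrps14), 0.13 (Mrps9), 0.10 (Mrps5) and 0.00 (Mrps7).

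Proteins of the mitochondrial ribosome whose symbols do not begin with Mrp gave a similar picture. Dap3, a GTP-binding protein of the small subunit, had 11.65 ± 0.13 in the shPC tumors and 11.42 ± 0.33 in the Ctrl tumors (SD, n = 5 each), a difference of 0.23 with an adjusted p of 0.558 by limma. Ptcd3, a pentatricopeptide repeat protein of the small subunit, had a difference of 0.18, Gadd45gip1, a large subunit protein near the tunnel exit, one of 0.17, and Chchd1, of the small subunit, one of -0.04. None of the 4 had an unadjusted p under 0.05. Conversely, Mrps36 carries the family name but encodes a component of the oxoglutarate dehydrogenase complex, and its difference was 0.08.

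By class, the 30 bacterial-type genes of the large subunit had a median difference of 0.045 and 20 of them were above 0. The 20 mitochondria-specific ones, with Mrps30 and Mrps18a counted here, had a median of -0.004 and 10 above 0. Mrps18a, and Mrps18b in the small subunit, were counted as mitochondria-specific although both are related to bacterial S18. The classes thus follow descent only in part. In the small subunit, the median was 0.098 over 15 bacterial-type genes, 11 of them above 0, and 0.064 over 10 mitochondria-specific genes, 6 of them above 0. At an unadjusted p under 0.05, 1 and 2 genes of the large subunit and 2 and 1 of the small subunit were higher, in the same order of classes. Among all genes 7.8% were higher at that cut and 55.1% had a difference above 0. Differences between the classes were not tested. Mrpl53 and Mrps6 were not analysed here.

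The spread between tumors was larger in the shPC group for 51 of the 76 genes. This was not counted over all genes, so it cannot be called particular to the 76. The mean over the 76 genes was 10.44, 10.15, 10.16, 10.19 and 10.31 in shPC tumors 1 to 5, against 10.17, 10.16, 10.08, 10.24 and 10.24 in Ctrl tumors 1 to 5. Thus shPC 1 and shPC 5 lay above every Ctrl tumor, and the other 3 shPC tumors lay within the Ctrl range. Of the 76 genes, 30 had their highest value in shPC 1 and 18 in shPC 5, and 16 had their lowest in Ctrl 3. Highest and lowest tumors were likewise not counted over all genes. In shPC 1, 60 of the 76 genes lay above their own mean over the tumors, where 49.1% of all genes did so. In shPC 5 the count was 49 of 76, where it was 54.6% of all genes. The mean over the small subunit genes was 10.21 ± 0.18 in the shPC tumors and 10.14 ± 0.07 in the Ctrl tumors, and that over the large subunit genes was 10.27 ± 0.09 in the shPC tumors and 10.20 ± 0.07 in the Ctrl tumors (SD, n = 5 each). Without shPC 1 the median difference over the 76 genes was 0.019, beside 0.037 for all genes.

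The spread between tumors also differed from gene to gene. The following genes were named after their values were seen, as the extremes of the spread. The interval of the difference was narrowest for Mrpl35, the counterpart of bacterial L35, with 10.74 ± 0.17 in the shPC tumors and 10.77 ± 0.05 in the Ctrl tumors (SD, n = 5 each) and a difference of -0.03. It was widest for Mrps24 and Mrpl46. Mrps24, of the small subunit, had 9.11, 7.93, 8.01, 7.53 and 8.90 in the shPC tumors, against 8.55, 8.42, 8.27, 8.61 and 8.74 in the Ctrl tumors. The shPC tumors thus fell on both sides of the whole Ctrl range, shPC 1 and shPC 5 above it and the other 3 below, and the difference of -0.22 had an unadjusted p of 0.449 by limma. Mrpl46, a mitochondria-specific protein of the large subunit, had 7.80, 6.96, 6.59, 7.13 and 7.15 in the shPC tumors, against 7.10, 7.28, 6.06, 7.39 and 7.26 in the Ctrl tumors, a difference of 0.11 with shPC 1 highest and Ctrl 3 lowest. Mrpl19 came next after the 6 higher genes, with 10.75, 10.57, 10.30, 10.86 and 11.08 in the shPC tumors, against 10.37, 10.33, 10.10, 10.35 and 10.65 in the Ctrl tumors, and its difference of 0.35 had an unadjusted p of 0.0592 by limma. Mrpl58, a peptidyl-tRNA hydrolase built into the large subunit, had 11.94 ± 0.13 in the shPC tumors and 11.67 ± 0.22 in the Ctrl tumors (SD, n = 5 each), where Ctrl 5, at 12.04, was as high as the shPC tumors.

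**Figure D3:**
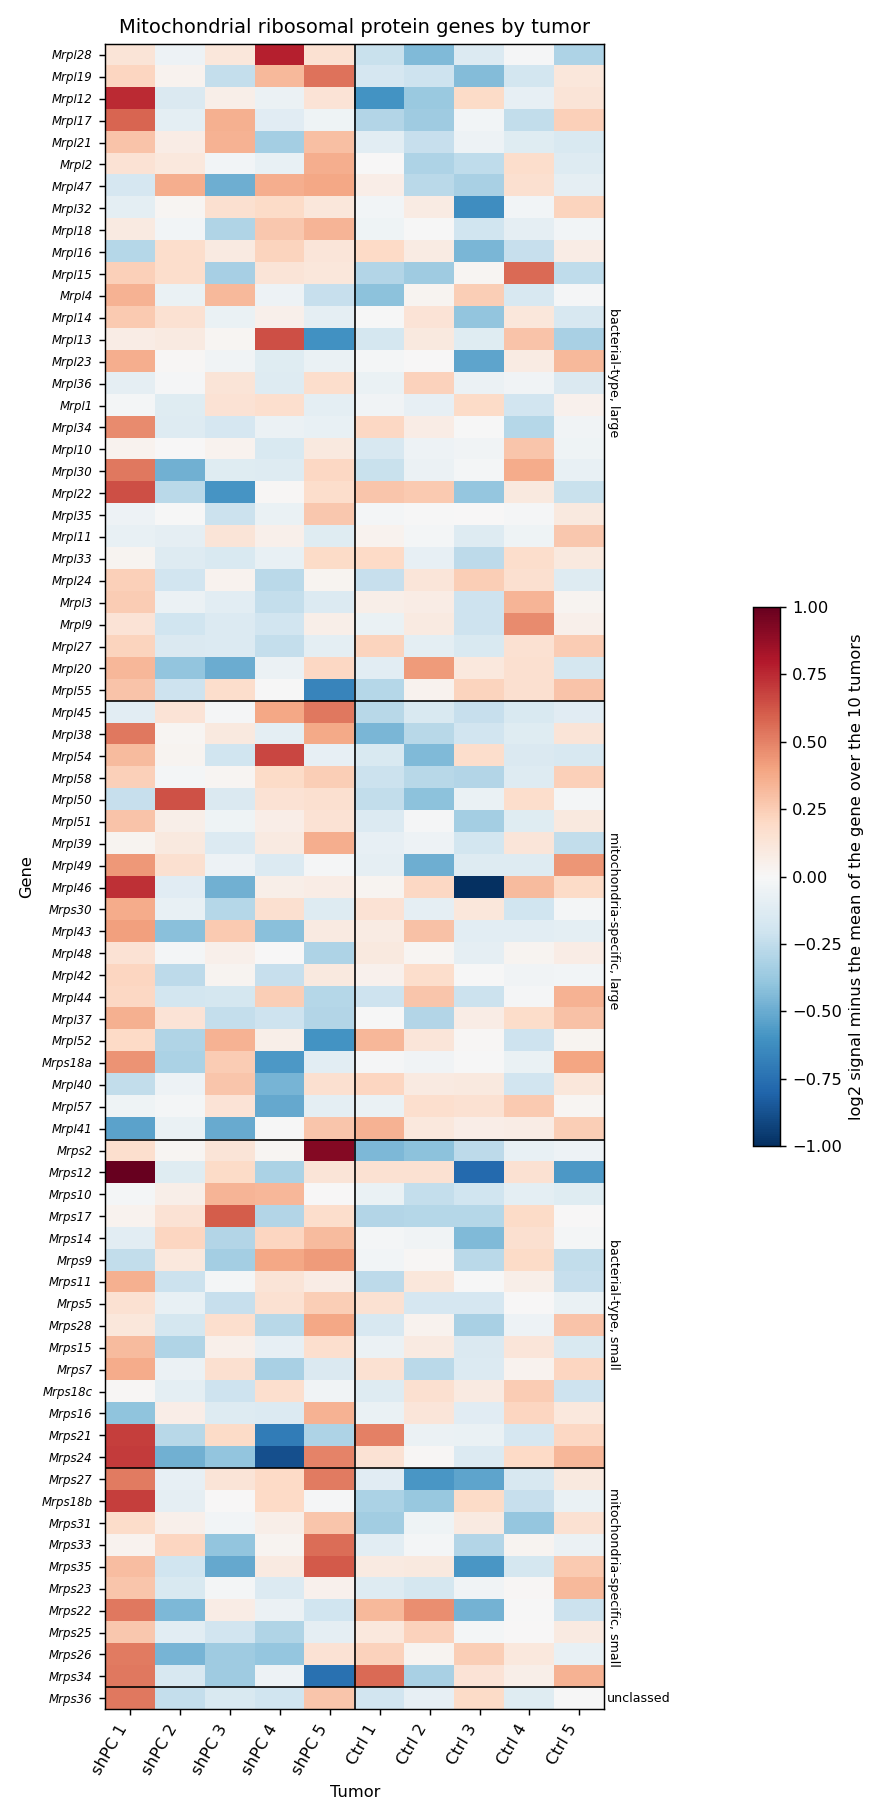
Log2 signal of the 76 genes (rows, by class and then by difference) in each tumor (columns, shPC left and Ctrl right), shown as the deviation from the mean of the gene over the 10 tumors; the colour scale ends at 1 log2 unit in each direction. The shPC 1 column is red in most rows (60 of 76 genes above their own mean), shPC 5 in many (49 of 76), and Ctrl 3 is mostly blue (21 of 76).

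The shPC 1 tumor was not high in these genes alone. It also had the highest mean of the 65 cytosolic ribosomal protein genes, 14.9 against 14.5 to 14.7 in the other 9 tumors, and the highest mean of the 80 nuclear genes of respiratory chain subunits, 12.1. Over these lists the median difference between the groups was -0.012 for the cytosolic ribosomal proteins, with 1 gene higher and 0 lower at an unadjusted p under 0.05, and -0.123 for the respiratory chain, with 0 higher and 4 lower. At that cut 7.8% of all genes were higher and 6.25% lower, and no count of these lists exceeds those shares. A positive difference was measured for 27 of the 65 cytosolic ribosomal protein genes (41.5%) and 23 of the 80 respiratory chain genes (28.7%), against 55.1% of all genes. The respiratory chain mean was 12.1 and 11.9 in shPC 1 and shPC 3, whose adipocyte means were 11.6 and 10.8, and 11.7 in each of shPC 2, shPC 4 and shPC 5, whose adipocyte means were 5.92 to 6.55, beside 11.8 to 12.0 in the Ctrl tumors. The part of adipocytes in the difference of the respiratory chain was not tested. In shPC 5, which was high in the mitochondrial ribosomal proteins, the respiratory chain mean was low, at 11.7, beside 11.8 to 12.0 in the Ctrl tumors, and its proliferation mean was the highest of all, at 13.0. The Ctrl 3 tumor, lowest in the mitochondrial ribosomal proteins, had the lowest proliferation mean, 11.9, and the highest leukocyte mean, 13.9. Other tumors differed from this order. The proliferation means of shPC 4 (12.88) and shPC 2 (12.56) lay above every Ctrl tumor. Their means of the mitochondrial ribosomal proteins, 10.19 and 10.15, lay within the Ctrl range. A link between these means was not tested. With the proliferation mean as a covariate, 0 of the 76 genes had an unadjusted p under 0.05 and a higher signal in the shPC tumors, and the median difference was -0.057. With the leukocyte mean as a covariate these values were 0 and -0.088. Among all 19505 genes, those higher at that cut also fell, from 1521 to 338 (proliferation) and 390 (leukocytes). The fall in this count was thus not particular to the 76 genes. The median over all genes was 0.036 without a covariate, 0.008 with the proliferation mean and 0.005 with the leukocyte mean. It fell less than the median of the 76 genes, which was 0.072 without a covariate. The proliferation and leukocyte means both differ between the groups, so such a fit also removes part of the group difference. With the adipocyte mean as a covariate, 5 genes were higher and 1 lower at an unadjusted p under 0.05 and the median difference was 0.064, close to the values without a covariate.

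**Figure D4:**
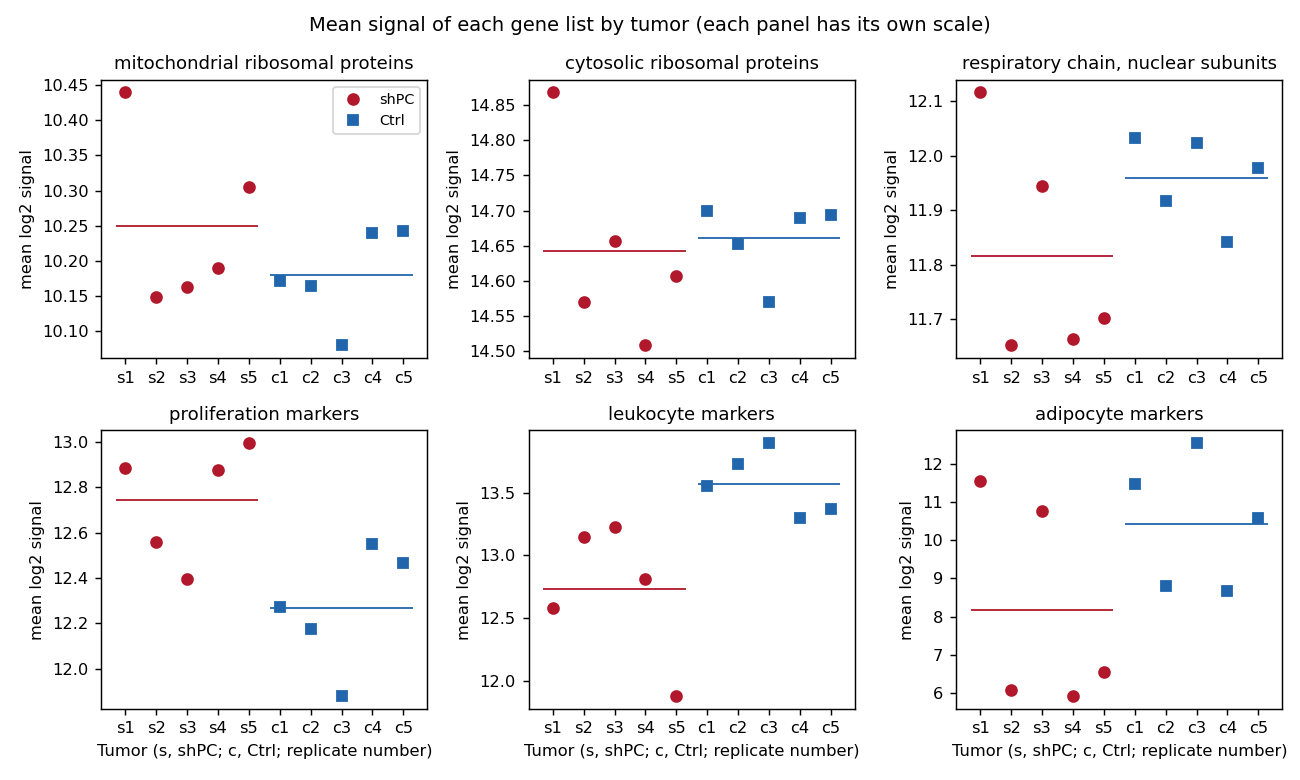
Mean log2 signal of 6 gene lists in each tumor (circles, shPC; squares, Ctrl; lines, group means), with a separate scale in each panel. The mean of the mitochondrial ribosomal proteins is highest in shPC 1 (10.44) and shPC 5 (10.31) and lowest in Ctrl 3 (10.08), while the leukocyte means of the shPC tumors (11.9 to 13.2) all lie below those of the Ctrl tumors (13.3 to 13.9).

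Genes that build and serve the mitochondrial ribosome were examined beside its proteins. Among 26 assembly factors, 2 were higher at an unadjusted p under 0.05 and 0 lower, with a median difference of 0.135. Noa1, a GTPase needed for assembly of the small subunit, had 9.63, 8.87, 8.62, 9.17 and 9.16 in the shPC tumors, against 8.17, 8.36, 7.89, 8.58 and 8.38 in the Ctrl tumors. The groups did not overlap, and the difference of 0.81 (SE 0.20, adjusted p = 0.193, limma), a ratio of 1.76, was larger than that of any of the 76 ribosomal protein genes. Fastkd2, an RNA-binding protein of the mitochondrial RNA granules, had a difference of 0.50 (adjusted p = 0.284, limma). Of 15 translation factors, 1 was higher, the release factor gene Mtrf1l (0.34), and Taco1, which activates translation of cytochrome oxidase subunit I, had 0.27 with an unadjusted p of 0.0866 by limma. Of 19 mitochondrial tRNA synthetase and amidotransferase genes, 17 had a positive difference and 2 an unadjusted p under 0.05, both of them higher, namely the asparagine enzyme Nars2 (0.43) and the leucine enzyme Lars2 (0.36), and the median was 0.208.

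Of the 13 genes for maintenance and transcription of mitochondrial DNA, 5 were higher at an unadjusted p under 0.05, 0 lower, and 3 had groups that did not overlap. Among all genes 7.8% were higher at that cut, and 1.82% had groups apart with shPC higher. Tfb2m, a transcription factor of the mitochondrial RNA polymerase, had 11.67, 11.55, 11.41, 11.95 and 11.66 in the shPC tumors, against 11.24, 10.94, 10.61, 11.38 and 10.96 in the Ctrl tumors. The lowest shPC tumor was just above the highest Ctrl tumor, and the difference was 0.62 (SE 0.17, adjusted p = 0.197, limma). Twnk, the replicative helicase, had a difference of 0.47. The others, named after their values were seen, were Tfam, which packages mitochondrial DNA, and the nuclease gene Mgme1, both without overlap between the groups, and the topoisomerase gene Top1mt. Among 15 chaperones and proteases, 14 had a positive difference, and Hspd1, the chaperonin of the matrix (0.43), and Afg3l2, a protease known to process the ribosomal protein Mrpl32 (0.35), had unadjusted p-values under 0.05. Among 15 genes of import, carriers and cristae, which stand for mitochondrial content, the median was 0.098 and 2 were higher, Tomm40 (0.46) and Immt (0.33). None of these genes passed the adjusted test, by which 0 genes of any list were called, and each count is to be read beside the 7.8% of all genes that were higher at an unadjusted p under 0.05. Counts of positive differences, those of the tRNA synthetases included, are to be read beside the 55.1% of all genes.

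Of 8 regulators of nuclear genes for mitochondrial proteins, Nrf1 had 12.15, 12.22, 12.18, 12.30 and 12.32 in the shPC tumors, against 11.81, 11.74, 11.76, 12.19 and 12.01 in the Ctrl tumors. Only Ctrl 4 reached the shPC range, and the difference was 0.33 (SE 0.13, adjusted p = 0.285, limma). Gabpb1, a subunit of the GABP complex, had a difference of 0.37 with an unadjusted p of 0.045 by limma and was named after its value was seen. Ppargc1b, a coactivator of mitochondrial biogenesis, ran the other way, with 8.06, 7.08, 7.86, 7.61 and 6.68 in the shPC tumors, against 8.16, 8.42, 8.36, 7.97 and 8.08 in the Ctrl tumors. Of the shPC tumors 4 lay below all Ctrl tumors, and the difference was -0.74 (SE 0.25, adjusted p = 0.243, limma). It was highest in shPC 1 and shPC 3 within its group, whose adipocyte means were also highest. Among Ctrl tumors it was highest in Ctrl 2, with an adipocyte mean of 8.79 in a range of 8.67 to 12.5. Ppargc1a, named after its value was seen, had a difference of -1.05 (adjusted p = 0.533, limma). The part of adipocytes in both was not tested. In the respiratory chain, which the mitochondrial ribosome supplies with its mitochondrially encoded subunits, Ndufs4, of complex I, had a difference of -0.35 without overlap between the groups (adjusted p = 0.272, limma). Cox6a2, the isoform of a cytochrome oxidase subunit found in heart and skeletal muscle, had a difference of -1.10, with 5.09 to 6.38 in the shPC tumors, against 8.43, 7.78, 6.97, 6.26 and 6.22 in Ctrl tumors 1 to 5. The mean of the muscle markers was 8.09, 4.35, 3.71, 3.82 and 4.07 in Ctrl tumors 1 to 5, against 3.80 to 4.13 in the shPC tumors. The source of the Cox6a2 difference was not tested.

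**Figure D5:**
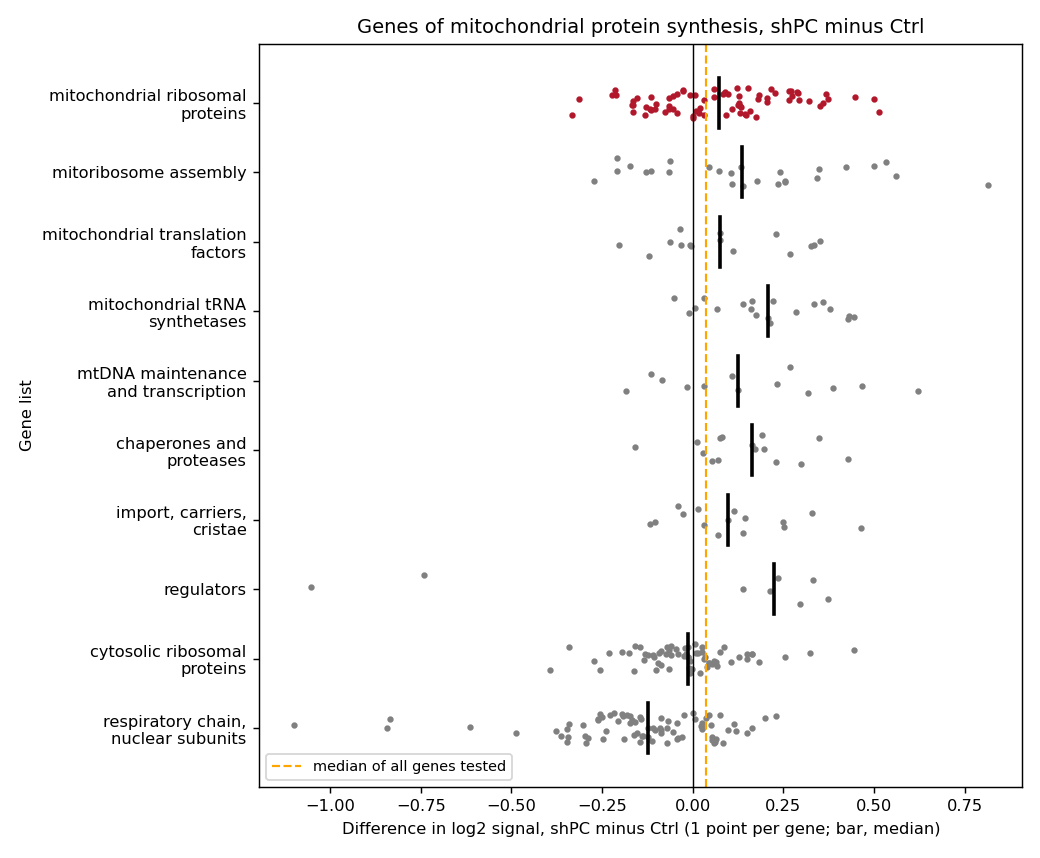
Difference in log2 signal, shPC minus Ctrl, for each gene (points) of 10 lists, with the median of the list as a black bar and the median of all genes tested, 0.036, as a dashed line. The 76 mitochondrial ribosomal protein genes lie between -0.33 and 0.51 with a median of 0.072, the tRNA synthetases have a median of 0.208 and the respiratory chain subunits one of -0.123.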

How the data were processed

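A Clariom S mouse array was run for each of 10 whole-tumor RNA samples after labelling with WT PLUS reagents, and the authors used Transcriptome Analysis Console for quality control. The deposited values are normalized signals read here as log2, between 1.45 and 19.19. The base and the normalization are not given in the sources used here, and the highest values exceed what a 16-bit scanner gives on that scale, so ratios rest on this reading. Of 22206 probe sets, 19572 name 1 gene in the platform annotation, and the one with the highest mean was kept for each of 55 genes with several. All 76 symbols matched RefSeq by Entrez Gene number. Tumors were grouped by their labels.

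Groups were compared with limma 3.58.1 in R 4.3.3 over all 19505 genes, shPC minus Ctrl, with Benjamini-Hochberg adjustment over all of them and a threshold of 0.05. Groups were called apart where all tumors of one lay above all of the other. By rule, the text names the 6 genes of lowest p per direction, those with groups apart, those of 5 structural lists, up to 2 of each pathway list with the smallest p, and Pcx. Members and lists were chosen with earlier results of these data known, and lists were written from general knowledge. Promoters came from RefSeq (GRCm38.p6). Alternatives were quantile normalization, centring on the median, a low-signal filter (30th percentile of the array in at least 5 arrays), moderation with a trend and robust hyperparameters (statmod 1.5.0), weighting of arrays, the replicate number as a block, marker means as covariates and leaving out tumors. The fit was tested on simulated data with 200 changed genes. The number of arrays limits the precision.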

Additional observations from a re-analysis of the deposited data

Results flagged for a closer look

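Among the named genes, 4 of 60 groups of 5 tumors held a tumor far from the other 4 of its group by Dixon's criterion, which chance gives in about 1 of 20 groups. Mrps2 was at 11.52 in shPC 5 and at 10.62 to 10.77 in the other shPC tumors. Mrpl28 was at 8.84 in shPC 4 and at 8.01 to 8.21 in the other shPC tumors. Mrpl23, near the exit tunnel, was at 11.33 in shPC 1 and at 10.85 to 10.98 in the other shPC tumors. Mrps18a was at 9.52 in Ctrl 5 and at 9.06 to 9.12 in the other Ctrl tumors. Over all 76 genes, 10 of 152 groups held such a tumor.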

How the results depend on the processing

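Under 22 alternatives 0 of the 76 genes passed the adjusted test, and the lowest adjusted p of any named ribosomal protein gene was 0.153. Of 572 values of the named genes 525 kept their direction. With arrays centred on their median, which raised the median of all genes to 0.135, the median was 0.171 over the 76 genes, 0.144 over Mrpl and 0.185 over Mrps, and 2180 genes were higher and 852 lower at an unadjusted p under 0.05, against 1521 and 1219. That setting gave Mrpl11 0.055, Mrpl22 0.091, Mrpl24 0.035 and Mrps18c 0.033, the sign opposite to the values above. Quantile normalization turned Mrpl10 to -0.023, Mrpl22 to 0.006 and Mrps7 to -0.029, and array weights turned Mrpl10 to -0.025 and Mrps7 to -0.031. With array weights the median was 0.012 over the 76 genes and 0.007 over Mrps, below the 0.029 of all genes. With the adipocyte mean as a covariate 5 genes were higher and 1 lower at an unadjusted p under 0.05, the median was 0.064, and Mrpl10 (-0.006), Mrpl24 (0.026), Mrps18a (0.129), Mrps9 (-0.109) and Mrps14 (-0.059) changed sign. With the leukocyte mean 0 were higher and 2 lower, the medians were -0.088 over all 76 genes, -0.059 over Mrpl and -0.138 over Mrps, and Mrps2 (-0.003), Mrpl10 (-0.088), Mrpl23 (-0.105), Mrps5 (-0.159), Mrps7 (-0.021), Mrps9 (-0.168) and Mrps14 (-0.14) changed sign. With the proliferation mean 0 were higher, the medians were -0.057 over all 76 and -0.11 over Mrps, and Mrpl10 (-0.065), Mrpl23 (-0.228), Mrps5 (-0.138), Mrps7 (-0.049), Mrps9 (-0.16) and Mrps14 (-0.186) changed sign. Among all 19505 genes, 390 were higher and 282 lower at that cut with the leukocyte mean, and 338 and 293 with the proliferation mean. With the adipocyte mean these counts were 940 and 795. The cause of these changes was not tested. Without Ctrl 1 and shPC 5, a setting added after seeing the data, 3 genes were higher and 1 lower at an unadjusted p under 0.05, 1 had groups apart with shPC lower, and Mrpl10 (-0.055) and Mrpl22 (0.015) changed sign.

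Leaving out 1 tumor at a time gave 2 (without Ctrl 1) to 7 genes higher and 0 to 2 lower (2 without shPC 1) at an unadjusted p under 0.05, 3 to 6 genes with groups apart and shPC higher and 0 to 1 with shPC lower, and a median of 0.019 to 0.097, or 0.019 to 0.088 over Mrpl and 0.023 to 0.126 over Mrps, the lowest each time without shPC 1. Differences that changed sign ranged from -0.032 to 0.078 (Mrpl10), -0.083 to 0.017 (Mrpl11), -0.17 to 0.137 (Mrpl22), -0.067 to 0.145 (Mrpl23), -0.24 to 0.015 (Mrps18a) and -0.091 to 0.084 (Mrps7). Differences that kept their sign but moved by over 1.5 times included Mrpl12 (0.144 without shPC 1), Mrps12 (0.152 without shPC 1), Mrps18b (0.187 without shPC 1), Mrps34 (-0.485 without shPC 1, -0.167 without shPC 5), Mrps26 (-0.37 without shPC 1, -0.125 without shPC 2), Mrps25 (-0.252 without shPC 1, -0.11 without shPC 4) and Mrpl57 (-0.111 without shPC 4). Same-numbered shPC and Ctrl tumors deviated together with correlations over all genes of 0.044 to 0.281, not all above 0.1, so the numbers were not taken to pair them. With the replicate number as a block 5 genes were higher and 0 lower at an unadjusted p under 0.05, and the median was 0.072.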
